A study of Homo sapiens with 4 samples.

Results

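The genes examined here encode the retinoic acid receptors RARA, RARB and RARG and the retinoid X receptors RXRA, RXRB and RXRG. Open chromatin at these 6 genes was compared in HL-60 cells with and without ATRA treatment. The assay was ATAC-seq, where a transposase (Tn5) places sequencing adapters into accessible DNA. For each gene, every deposited peak that overlapped the gene body or 50 kb on either side of it was taken, with GENCODE gene models on the hg19 build. Peaks of the 4 libraries that shared at least 1 bp were joined into regions, which gave 64 regions at the 6 genes of 78063 in the genome. HL-60 is a human leukemia line from peripheral blood that matures along the granulocyte lineage under all-trans retinoic acid (ATRA). The labels give its disease as acute promyelocytic leukemia, although the line is known to lack the PML-RARA fusion of that disease. The ATRA group had 1 µM ATRA for 4 days and the control group had the ethanol vehicle, with 2 replicates each. All 4 libraries came from this single line, so the replicates measure the spread between cultures of 1 genotype. The study called them independent biological replicates.

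RARs are nuclear receptors that bind ATRA, and they act on DNA as heterodimers with RXRs. The dimer sits on direct repeats of a short hexamer, classically with 5 bases between the copies (DR5) or with 2 (DR2). Without ligand the dimer holds corepressors such as NCOR1, and with ligand it takes up coactivators such as NCOA1 and EP300. RARA is the main receptor behind the response of myeloid leukemia cells to ATRA, and RARB is a classical direct target of the receptors in many cells. Each RAR gene has several promoters whose transcripts differ at the amino terminus, so the peaks were read promoter by promoter.

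The sequences below come from promoter and intron regions of the RAR genes and from 2 DR5 repeats. They were read from hg19 and are printed 5′ to 3′ in the direction of the gene. The first stretch lies at chr12:53614217-53614516 on the minus strand, directly upstream of a RARG start and inside a region found in the ATRA lists alone, and its capitals mark a CEBP motif and an overlapping pair of GATA motifs. These motifs lie in the peak of ATRA replicate 1 and outside the shorter peak of ATRA replicate 2. Next is chr17:38474134-38474433, upstream of the RARA start whose peak was present in all lists, with a RUNX motif in capitals that is outside the peak of control replicate 2. The stretch at chr17:38494406-38494605 belongs to an ATRA-only region in a RARA intron, with a PU.1 motif in capitals that both ATRA peaks hold. At chr3:24728282-24728581, upstream of the distal RARB start, the capitals mark 3 GATA motifs, 1 AP-1 motif and 1 RUNX motif, and the last 2 GATA motifs are outside the peak of ATRA replicate 1. The control-only region in a RARB intron is represented by chr3:25005473-25005622, with a CEBP motif in capitals that is outside the peak of control replicate 2. The last pair, chr3:25469694-25469723 and chr17:38497898-38497927, hold the only DR5 repeats near coding starts of the 6 genes, in capitals. No peak was called at either repeat.
RARG upstream: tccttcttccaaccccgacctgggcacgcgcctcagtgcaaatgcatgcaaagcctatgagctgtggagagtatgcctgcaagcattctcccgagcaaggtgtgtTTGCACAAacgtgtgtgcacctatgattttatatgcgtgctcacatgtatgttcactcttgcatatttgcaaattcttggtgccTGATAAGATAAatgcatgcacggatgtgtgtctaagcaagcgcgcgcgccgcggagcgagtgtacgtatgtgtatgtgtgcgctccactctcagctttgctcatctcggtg
RARA upstream: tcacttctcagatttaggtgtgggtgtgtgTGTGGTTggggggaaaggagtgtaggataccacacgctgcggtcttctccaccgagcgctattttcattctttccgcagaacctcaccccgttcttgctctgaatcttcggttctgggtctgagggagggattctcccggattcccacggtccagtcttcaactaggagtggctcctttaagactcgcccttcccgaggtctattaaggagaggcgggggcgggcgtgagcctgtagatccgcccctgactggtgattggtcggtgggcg
RARA intron, ATRA only: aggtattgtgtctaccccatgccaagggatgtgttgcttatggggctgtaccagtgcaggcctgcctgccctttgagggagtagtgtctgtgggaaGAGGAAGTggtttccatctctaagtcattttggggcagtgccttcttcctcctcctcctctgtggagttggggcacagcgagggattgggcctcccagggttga
RARB upstream: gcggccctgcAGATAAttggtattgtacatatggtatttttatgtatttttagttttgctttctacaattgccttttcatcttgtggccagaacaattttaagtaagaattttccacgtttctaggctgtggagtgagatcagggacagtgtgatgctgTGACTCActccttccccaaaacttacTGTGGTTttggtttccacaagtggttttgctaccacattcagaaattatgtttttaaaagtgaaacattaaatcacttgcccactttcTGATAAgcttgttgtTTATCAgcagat
RARB intron, control only: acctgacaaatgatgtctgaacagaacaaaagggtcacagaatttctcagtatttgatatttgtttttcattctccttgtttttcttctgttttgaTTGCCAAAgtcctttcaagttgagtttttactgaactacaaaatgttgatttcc
RARB DR5: cgggtagGGTTCACCGAAAGTTCActcgca
RARA DR5: ccaggcgAGTTCAGCGAGAGTTCAgccgca

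The lists of the ATRA libraries held 43494 (replicate 1) and 63541 (replicate 2) peaks, and those of the control libraries 42081 and 45903. ATRA replicate 2 stood apart, with a median peak width of 416 bp against 291 to 328 bp and with 31.6 Mb covered against 16.3 to 17.5 Mb. Scores were therefore read only as percentiles within a list, where 100 is the highest score. No read counts were in the lists, so the depth was unknown, and a peak missing from a list shows that none was called, not that the chromatin was closed. Promoters of SPI1, CEBPE and CD33, genes of the granulocyte line, had a peak in all 4 lists, whereas ELANE and AZU1 had none. MPO had one in ATRA replicate 2 and control replicate 2, PRTN3 in ATRA replicate 2 and CSF3R in control replicate 1. Among genes of matured neutrophils, ITGAM had a peak in every list, and CYBB, FPR1 and CD38 had none. The promoters of ITGAM, in 3 start clusters with a single value per list, ranked 79.8 and 87.9 with ATRA and 58.2 and 32.9 in control. Among marker genes of other cell types, CD8A and COL1A1 had a promoter peak in every list, and GATA1, HBB, ALB, CD3E and PAX5 had none in any. A promoter peak is not expression, and the part of list length in the results below was not tested beyond the alternatives named there.

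Regions at the receptor genes were first sorted by the lists that held them. Of the 64, 15 were in all 4 lists (23.4%), against 30.3% of all regions. A further 6 were in both ATRA lists and neither control list (9.38%), against 8.94% of all regions. In the other direction 3 were in both control lists and neither ATRA list (4.69%), against 3.37%. These shares were close to the background, so the receptor genes as a group did not stand out in number. The ATRA-only count was 13 without ATRA replicate 1, 14 without ATRA replicate 2 and 12 without control replicate 1. The control-only count was 8, 9 and 7 without ATRA replicate 2, control replicate 1 and control replicate 2. With a library left out, 1 list stood for its group, so the rule differed and these counts are not like for like with the 6 and 3. By gene, RARA had 10 regions, RARB 17, RARG 11, RXRA 9, RXRB 7 and RXRG 10. The windows behind these counts ran from 107 kb for RXRB to 1010 kb for RARB, since RARB spans 910 kb. By place, 23 regions lay in introns, 19 between genes, 13 at promoters and 9 on exons. Only 4 of the 13 promoter regions were at a promoter of the receptor gene itself.

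**Figure D1:**
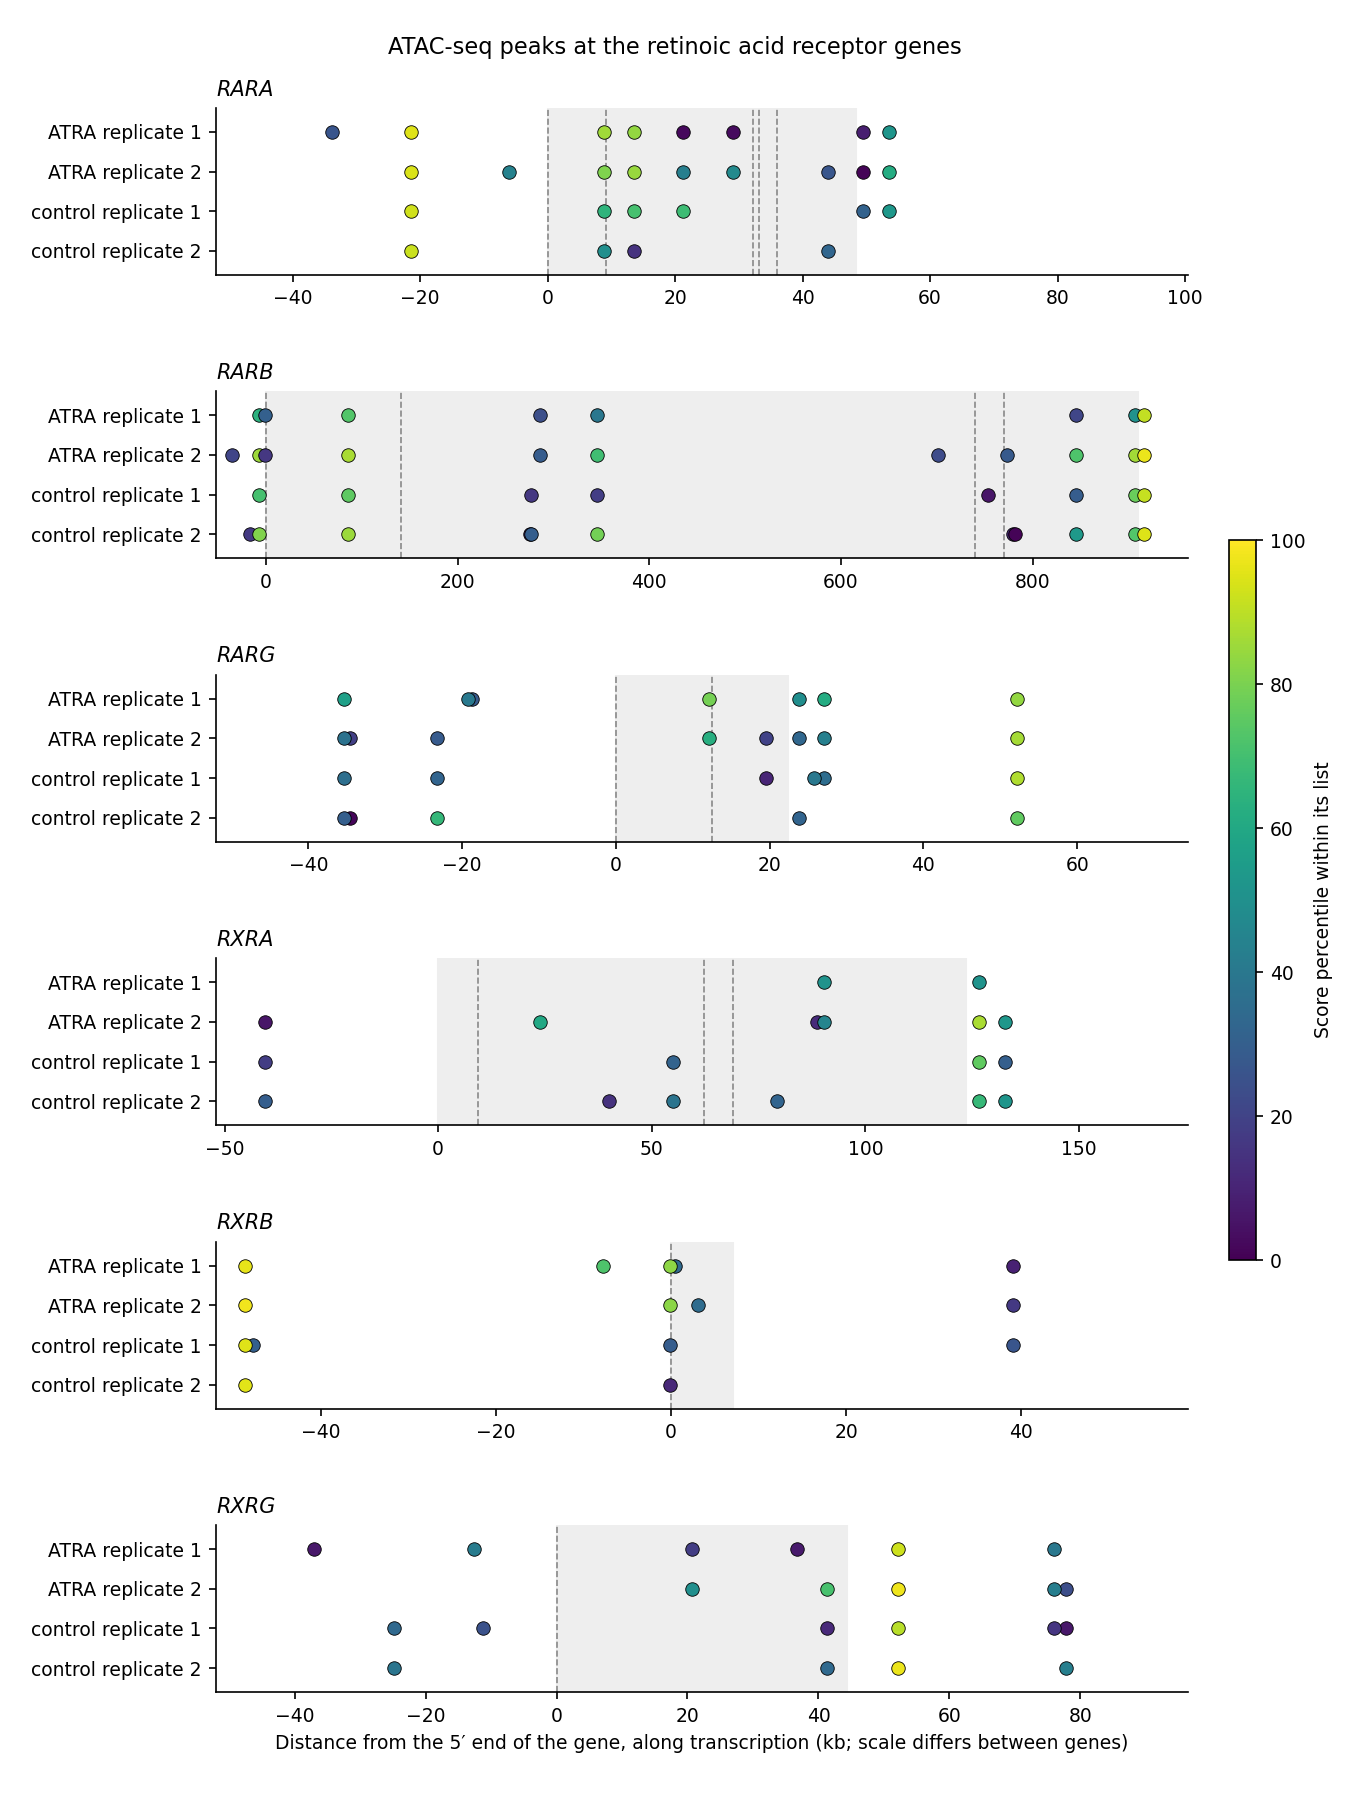
Each row of dots is 1 peak list and each dot a region at its distance in kb from the 5′ end of the gene (scales differ between genes), coloured by the score percentile of its highest peak in that list. Grey shading is the gene body and dashed lines are coding start clusters. Regions present in all 4 lists numbered 6 at RARB and 3 at RARA, and the ATRA-only region of RARG lies beside its downstream start.

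The 3 RAR genes are described before their RXR partners. RARA (chr17:38465432-38513895, plus strand) had coding starts in 5 clusters, where starts within 500 bp were joined. A promoter peak was 1 that overlapped the window from 1000 bp upstream to 100 bp downstream of a cluster. Only cluster 2, the start of RARA-204 and RARA-206 at chr17:38474533, had one. This peak scored at percentile 85.8 in ATRA replicate 1, 80.6 in ATRA replicate 2, 65.0 in control replicate 1 and 49.4 in control replicate 2. Both ATRA values were thus above both control values. Its width was 667 and 642 bp in the ATRA lists and 567 and 364 bp in the control lists. The mean percentile was 83.2 ± 3.70 (SD, n = 2) with ATRA and 57.2 ± 11.0 (SD, n = 2) in control, a difference of 26.0 percentile points (two-sided exact permutation p = 0.333, adjusted p = 0.333 over 2 promoters). That is the smallest p that 2 against 2 libraries can give. Among the 9615 promoters with a peak in all 4 lists, 10.3% had a difference at least as large, and the median difference was 3.41.

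The other 4 RARA starts had no promoter peak in any list. The most upstream cluster, of RARA-201 and RARA-208, was 5.78 to 8.76 kb from the nearest peak. Between the starts, a region at chr17:38478404-38479486 covered or lay within 500 bp of the start of RARA-210, a transcript not annotated as protein-coding. It was in all lists, at percentiles 83.7 and 84.7 with ATRA and 70.4 and 14.7 in control. The ATRA values agreed closely and were the higher ones, but the control replicates lay farther apart than the group means, 84.2 ± 0.742 and 42.6 ± 39.4 (SD, n = 2), which differed by 41.7 points. An intronic region at chr17:38494312-38494758 was in the ATRA lists only, at percentiles 3.04 and 47.5 and widths of 250 and 447 bp. It holds the PU.1 motif printed above and was no longer in both ATRA lists when the lists were cut to equal length. At the CDC6 promoter upstream, which serves a DNA replication gene, the peak ranked from 91.8 to 95.1 in all 4 lists.

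RARB (chr3:24729378-25639423, plus strand) showed peaks mostly far from its promoters. The cluster of starts (start 3) with RARB-201 at chr3:25469754, is the promoter known for its response to retinoic acid, and the DR5 repeat printed above is centred at -45 bp from that start. No list had a peak there. The nearest peak to the repeat was 105 kb away in ATRA replicate 1, 33.1 kb in ATRA replicate 2, 13.1 kb in control replicate 1 and 39.2 kb in control replicate 2. Clusters 2 and 4, counted along the chromosome, were also without a promoter peak. Only the most upstream cluster, of RARB-204, RARB-212 and RARB-214 at chr3:24729378, had one, and only in the ATRA lists. Its percentiles were low, 30.3 and 16.3, and the peaks ended at -854 and -797 bp from the start. This region, chr3:24728212-24728581, was no longer in both ATRA lists once the lists were cut to equal length.

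Of the 17 RARB regions, 6 were in all lists and 8 in a single list, the latter at percentiles of 0.878 to 27.7. Over the genome, 30.3% of regions were in all lists, 22.9% in 1 ATRA list only and 10.5% in 1 control list only. An intronic region at chr3:24815226-24815806 ranked 72.7 and 86.8 with ATRA and 75.2 and 84.8 in control. A region centred at -7219 bp from the most upstream start, chr3:24721828-24722492, ranked 63.9 and 85.3 with ATRA and 70.7 and 81.1 in control. In both, the groups overlapped, and the means differed by -0.22 and -1.27 points. The highest, chr3:25645031-25646129, ranked 90.7 to 97.0 in all lists and lies downstream in an intron of TOP2B, which encodes a DNA topoisomerase. At all 6 RARB regions in all lists the groups overlapped, as they did at 13717 of the 23653 such regions over the genome. RARB also had 1 more ATRA-only region, chr3:25015310-25015606 (percentiles 23.8 and 28.6), which was also no longer in both ATRA lists at equal list length, and 1 control-only region, chr3:25005372-25005639 (16.2 and 29.3), both in introns.

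At RARG (chr12:53604351-53626764, minus strand) an ATRA-only peak lay at the downstream coding promoter. The region chr12:53614217-53615056 is in an intron of the longer transcripts and directly upstream of the starts of RARG-204 and RARG-201, at chr12:53614197 and chr12:53614043. The peak was at percentile 78.9 in ATRA replicate 1 and 62.7 in ATRA replicate 2, with widths of 810 and 584 bp. Neither control list had a peak there, the nearest being 6.66 kb away in control replicate 1 and 11.0 kb in control replicate 2. Of the 6 ATRA-only regions at the receptor genes, this was the only one kept under all 6 alternatives that changed list length, overlap, peak width, score or distance, including the upper 50% of each list by score. The upstream cluster of RARG starts had no peak in any list. Outside the gene, the promoter shared by CSAD and ZNF740 ranked 83.9 and 86.6 with ATRA and 87.9 and 75.8 in control, with overlapping groups. The ESPL1 promoter, of the separase gene, ranked 56.4 and 37.6 with ATRA and 36.1 and 29.9 in control.

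**Figure D2:**
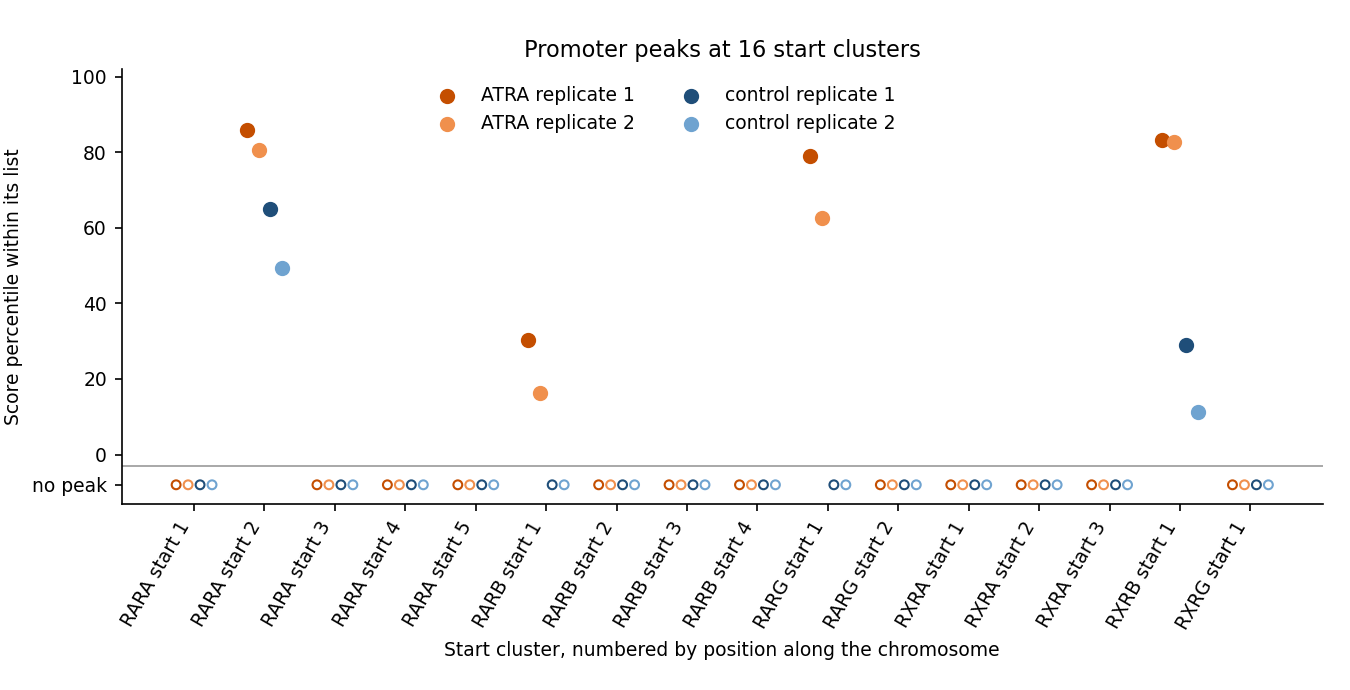
Score percentile of the highest promoter peak within its list (y axis) for 16 clusters of coding starts (x axis, numbered by position along the chromosome), 1 dot per library; open circles mark lists with no peak. Peaks appear at 4 clusters, and at RARA start 2 and RXRB start 1 both ATRA dots lie above both control dots.

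RXR genes differed from each other in the same way. RXRB (chr6:33161365-33168442, minus strand) had 1 cluster of coding starts, and it had a peak in all 4 lists. Its percentile was 83.2 in ATRA replicate 1, 82.6 in ATRA replicate 2, 29.0 in control replicate 1 and 11.1 in control replicate 2. Peak widths were 763 and 711 bp with ATRA against 299 and 385 bp in control. Both the rank and the width were therefore separated by group. With ATRA the mean was 82.9 ± 0.417 (SD, n = 2) and in control 20.1 ± 12.7 (SD, n = 2), a difference of 62.8 points (two-sided exact permutation p = 0.333, adjusted p = 0.333). Only 24 of the 9615 promoters with a peak in all lists (0.25%) had a difference as large. The difference was 53.9 to 71.8 when any 1 library was left out and 44.9 when peaks were ranked among promoter peaks alone. This region, chr6:33168126-33168889, is also the promoter of SLC39A7, a zinc transporter gene that runs the other way, so the peak cannot be given to either gene. The upstream region chr6:33216755-33217603 ranked 95.0 to 97.8 in all lists.

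RXRA (chr9:137208944-137332431, plus strand), known as the main RXR of myeloid cells, had no peak at any of its 3 coding start clusters in any list. The nearest peak to the start of RXRA-202, at chr9:137218301, was 14.2 to 80.7 kb away. Its window from 1000 bp upstream to 100 bp downstream was 75.7% G and C, the highest of the 16 clusters, while the median was 54.8% for promoters with a peak in all lists and 48.5% for those with none. Whether the base composition bears on the missing peak was not tested. In the gene body, an intronic region at chr9:137298855-137299478 was ATRA-only, at percentiles 51.5 and 45.4. The control-only region chr9:137263594-137264038, at 31.3 and 38.5, covered or lay within 500 bp of the start of RXRA-201, a transcript not annotated as protein-coding. ATRA replicate 1 had peaks in 2 RXRA regions, whereas the other lists had 4 to 6. The only RXRA region in all lists, chr9:137335144-137336019 beyond the 3′ end, ranked 51.4 and 87.2 with ATRA and 75.5 and 67.0 in control.

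RXRG (chr1:165370159-165414592, minus strand), which is expressed mainly in muscle and brain, had no peak at its coding starts. The nearest peaks were 11.1 to 24.8 kb away. Of its 10 regions, 7 lay between genes. The strongest, chr1:165362019-165362837 downstream of the gene, ranked 92.4 and 97.3 with ATRA and 89.4 and 97.0 in control, and the groups overlapped. The ATRA-only region, chr1:165393700-165394100, ranked 17.7 and 49.5. The control-only one, chr1:165439356-165439587, ranked 33.7 and 38.9.

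**Figure D3:**
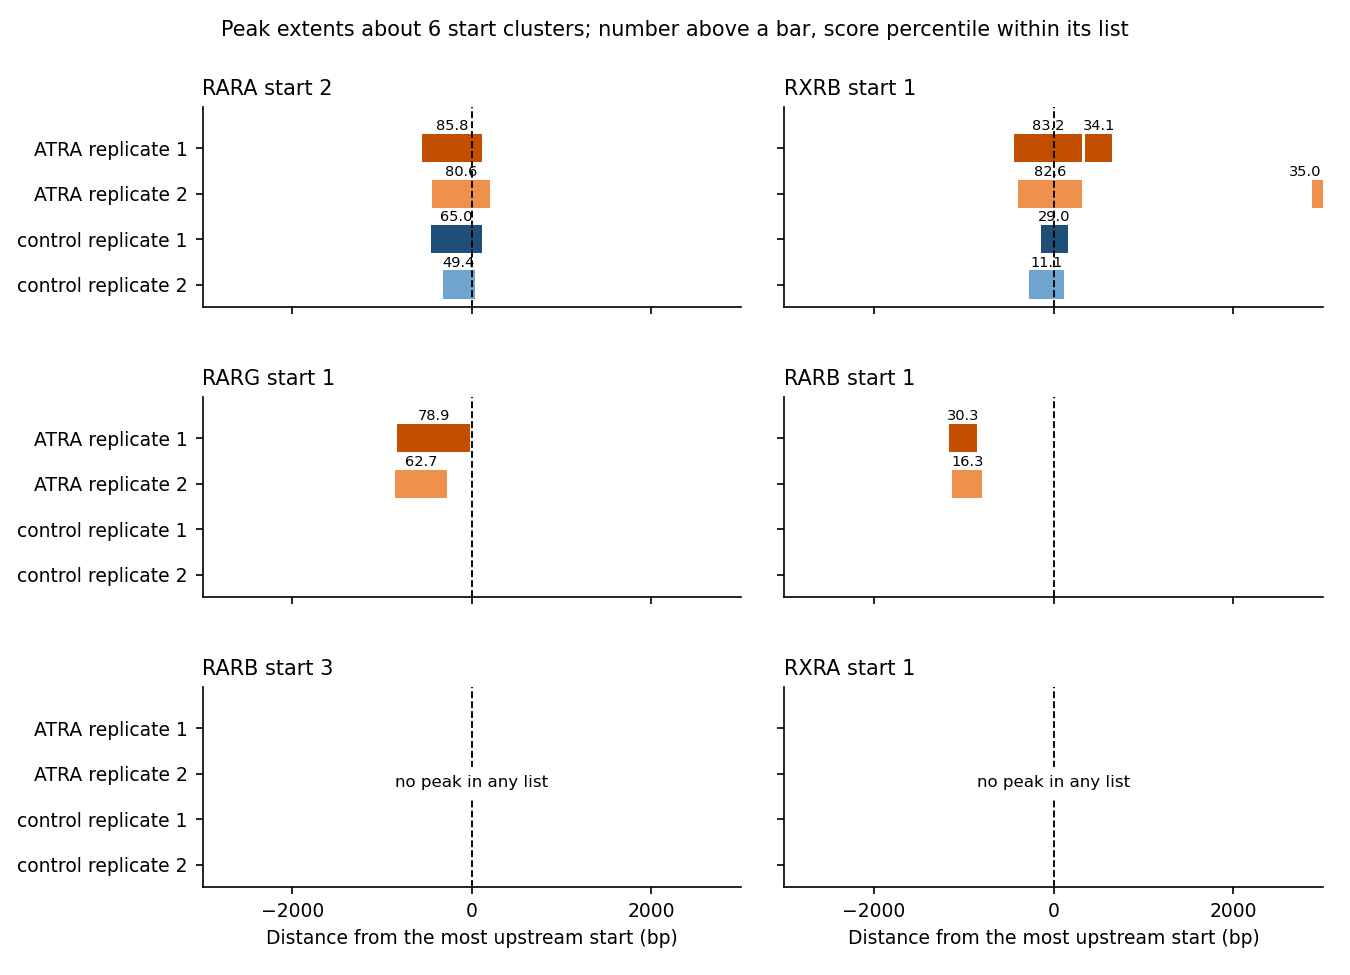
Extent of every peak within 3000 bp of 6 start clusters, along the direction of transcription, with the most upstream start of the cluster at 0 bp; 1 row per library, and the number over a bar is the score percentile. The RXRB peaks were 763 and 711 bp wide with ATRA and 299 and 385 bp in control, and RARB start 3 and RXRA start 1 had none.

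Across the 16 coding start clusters, 2 had a promoter peak in both ATRA lists and neither control list, RARG start 1 and RARB start 1. Over all 39213 promoters this share was 1.7%. In both control lists and neither ATRA list there was no receptor promoter, and over all promoters 0.303%. A peak in all 4 lists was found at 2 of the 16, against 24.5% of all promoters. The remaining 12 had none in any list, as did 25072 of the 39213 promoters. By gene, RARA, RARB, RARG and RXRB each had 1 cluster with a peak, and RXRA and RXRG had 0. In each list the median percentile over all promoter peaks was 83.0, 84.2, 81.4 and 77.2, with the ATRA lists named before the control lists. The RARA and RXRB promoters were thus near the middle of promoter peaks in the ATRA lists and below it in the control lists.

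The 15 regions in all lists were then compared by rank. Both ATRA percentiles were above both control percentiles at 6 of them, against 29.2% of all such regions. The reverse order occurred at 0 of the 15, against 12.8% of all such regions, and at 9 the groups overlapped. The median difference over the 15 was 2.46 points, compared with 2.83 over all 23653 regions of this kind. The 6 were the promoters of RXRB, RARA, ESPL1 and CDC6, the region at or near the RARA-210 start and the region upstream of RXRB. In the last of these the difference was 1.73 points.

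Peaks found in both replicates of a group were kept, as in the study. Here they were also merged, a step that the study does not state. A merged peak was specific if it overlapped no merged peak of the other group. Over the genome, this gave 37737 merged ATRA peaks, 14073 of them specific, and 31403 merged control peaks, 7444 of them specific. Both ATRA totals lie below those the paper reports and both control totals lie slightly above them, and the reason was not tested. The receptor genes had 28 merged ATRA peaks, of which 13 were ATRA-specific, against 37.3% of all. They had 23 control peaks, of which 8 were control-specific, against 23.7% of all. ATRA-specific peaks were 4 at RARA, 3 at RARG, 2 each at RARB and RXRG, and 1 each at RXRA and RXRB. Control-specific peaks were 3 each at RXRA and RXRG, 1 each at RARB and RARG, and 0 at RARA and RXRB. Leaving out a library changed the rule itself, since every peak of the 1 list left in that group was then kept. The counts that follow therefore do not measure the weight of a library. ATRA-specific peaks were 23 without ATRA replicate 1, 22 without ATRA replicate 2 and 7 without control replicate 2. Control-specific peaks were 3 without ATRA replicate 1, 16 without control replicate 1 and 13 without control replicate 2.

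The share of called peak width that lay at each gene was measured as its peak base pairs per 1000000 peak base pairs of the list. This share depends on the list total, which was largest in ATRA replicate 2, and is not an amount of open chromatin. At RARA it was 207 and 154 with ATRA and 177 and 111 in control. RARG had 191 and 103 with ATRA and 133 and 73.6 in control, and RXRB had 130 and 73.2 against 76.7 and 65.3. In all 3 the groups overlapped. RARB and RXRA had higher means in control, 205 ± 40.3 against 173 ± 13.8 and 97.3 ± 32.3 against 73.5 ± 16.1 (SD, n = 2). RXRG was 88.5 ± 15.3 with ATRA and 82.7 ± 12.3 in control. The two-sided exact permutation test gave p = 0.667 for each of the 6 genes (adjusted p = 0.667). With 2 against 2 libraries this test cannot give a p below 0.333, so no gene could have passed at any difference. The differences at RARB and RXRA turned positive when base pairs were not divided by the list total.

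**Figure D4:**
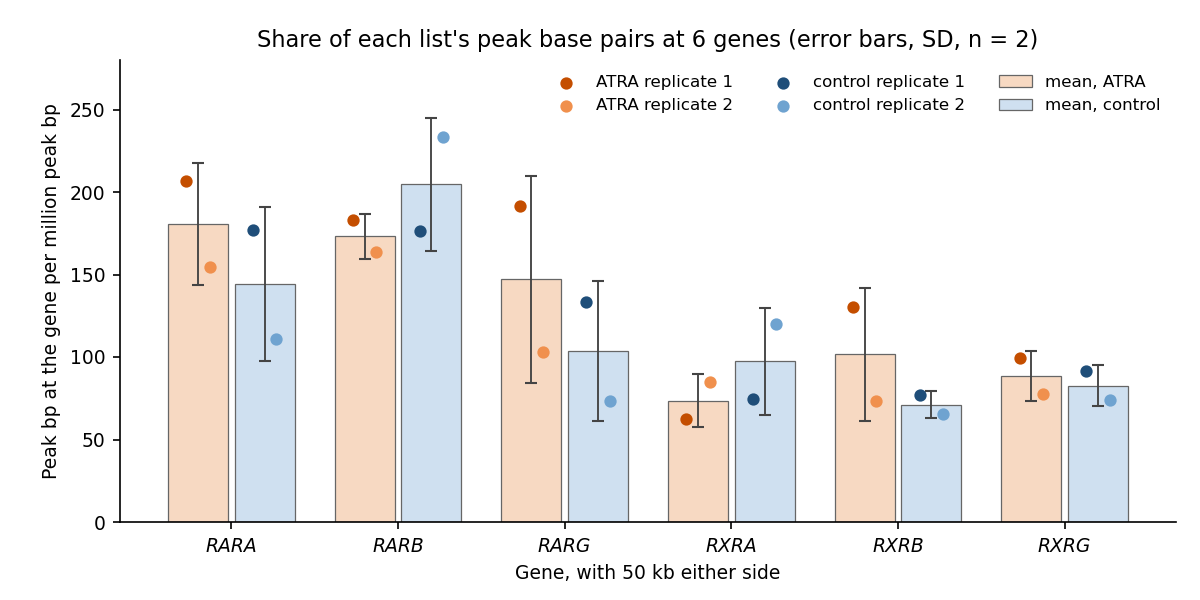
Peak base pairs at each gene and 50 kb either side per 1000000 peak base pairs of the list (y axis), as 1 dot per library, with bars for group means and error bars for SD (n = 2). Dots of the ATRA and control lists overlap at each of the 6 genes.

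Motifs were searched on both strands. DR5, DR2 and DR1 were made of the hexamer AGGTCA, its form AGTTCA, its form GGGTCA or its form GGTTCA in direct repeat with 5, 2 or 1 bases between. None of the 3 occurred in the central 200 bp of the 64 regions, nor in their whole length. They occur in 0.0974%, 0.106% and 0.0807% of all regions. Among the 33 windows from 1000 bp upstream to 100 bp downstream of distinct coding starts of the 6 genes, 4 held a DR5, against 0.244% of all 78716 such windows. These 4 windows share the 2 repeats printed above, 3 at RARB and 1 at RARA. The RARA repeat is centred 273 bp downstream of the RARA-203 start and at -702 bp from that of RARA-202. Its nearest peaks were 3.31 and 3.15 kb away in the ATRA lists and 11.0 and 11.3 kb away in the control lists.

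Motifs of myeloid factors were present in some regions. The PU.1 letters GAGGAAGT were in the central 200 bp of 8 of the 64 regions (12.5%, against 8.94% of all regions). CEBP, searched as TTGCNNAA, was in 7 (10.9% against 12.3%), and GATA, as AGATAA or TGATAA, was in 10 (15.6% against 18.8%). RUNX (AACCACA) was in 4 (6.25% against 8.55%), AP-1 (TGACTCA or TGAGTCA) in 5 (7.81% against 5.72%) and ETS (CCGGAAGT) in 1 (1.56% against 1.11%). Shares at the receptor genes were near those of all regions. In whole regions, the RARG promoter region had the CEBP motif at chr12:53614404-53614411 and the GATA pair at chr12:53614317-53614327, all within the peak of ATRA replicate 1 alone. A match is a description of the letters and does not show binding.

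Nuclear receptors that also pair with RXR were counted in the same way, from a list of 13 genes. Of these, 9 had a region in both ATRA lists and neither control list, as did 5 of the 6 receptor genes and 40.9% of protein-coding genes. Only 1 of the 13, NR4A1, had a region in both control lists and neither ATRA list, compared with 3 of the 6 receptor genes and 16.5% of protein-coding genes. Longer genes have wider windows, so these shares are not matched for length. ATRA-only regions numbered 3 each at PPARA and PPARD, fatty acid sensors, and at THRA, a thyroid hormone receptor. There were 2 each at NR1H2, an oxysterol sensor, and NR4A2, and 1 each at VDR, the vitamin D receptor, NR1H4, the bile acid sensor, NR1I2 and NR1I3. In each list, the highest promoter percentile over all start clusters of a gene was taken. At a gene with several clusters, the values of different lists can therefore come from different promoters. The PPARD promoter, in a single cluster, ranked 95.0 and 88.8 with ATRA and 56.9 and 58.7 in control. The highest values of NR1H2, which has 4 start clusters, were 75.0 and 90.1 against 46.7 and 26.1. By these values, ATRA was higher without overlap at PPARD, NR1H2 and NR4A2. These are 3 of the 4 genes with a promoter peak in every list, which need not be at the same promoter. That order was found at 29.2% of all regions in all lists, a share not taken over promoters or genes. For NR1H3, the other oxysterol sensor, which also has 4 start clusters, the highest values were 59.1 and 90.3 with ATRA and 72.5 and 76.6 in control.

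Coregulators of the receptors formed a list of 17 genes. ATRA-only regions were at 9 of them (52.9%, against 40.9% of protein-coding genes). Control-only regions were at 6 (35.3%, against 16.5%), namely NCOA1, NCOA3, CREBBP, TBL1X, TBL1XR1 and PML. A promoter peak in every list was found at 13 of the 17, against 41.9% of protein-coding genes and 2 of the 6 receptor genes. Here too, the highest promoter percentile over all start clusters of a gene was taken in each list. The promoter can therefore differ between lists. The 9 included the corepressor gene NCOR1 (2 regions), the genes of its partners HDAC3 (2) and TBL1XR1 (1), and the coactivator genes NCOA2 (1), NCOA3 (3), EP300 (2), CREBBP (2) and MED1 (2). At CREBBP, an acetyltransferase gene, 2 of its 7 start clusters had a peak in the ATRA lists alone, against 1.7% of all promoters. Percentiles there were low. The highest over all its clusters were 23.3 and 12.4 with ATRA and 20.2 in control replicate 2, with no promoter peak in control replicate 1. The highest values of EP300 were 92.9 and 94.6 with ATRA and 93.0 and 84.5 in control. Of the 13 with a promoter peak in every list, NCOA1 and CARM1 had both ATRA percentiles above both control percentiles. TBL1XR1 had the reverse and 10 overlapped. These 2 orders were found at 29.2% and 12.8% of all regions in all lists, and neither count here was above that share. The share was taken over regions and not over promoters. NCOA1 and TBL1XR1 have 4 start clusters each. The highest values of NCOA1 were 88.4 and 82.8 with ATRA and 75.2 and 64.9 in control. Those of TBL1XR1 were 24.6 and 10.5 with ATRA and 37.8 and 44.8 in control.

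Genes were also matched to a receptor gene by the highest promoter percentile of each gene in each list, over all its start clusters. The closest were taken by the smallest mean absolute difference over the 4 lists. For RARA these were SAMHD1 (1.72 points) and ERMAP (2.08), and for RXRB PTPN18 (3.61) and C19orf73 (3.93). RARG was most like MOV10 (0.974) and SLAMF8 (1.21), and RARB most like FBXW8 (0.351) and ENSG00000235007 (0.48). MOV10 had promoter percentiles of 82.1 and 62.0 in the ATRA lists and no promoter peak in either control list. With 4 lists these matches are a description only.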

How the data were processed

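HL-60 cells were profiled by ATAC-seq, with 2 ATRA and 2 control libraries grouped by their titles. Per the labels and methods, the authors removed adapters (cutadapt), aligned reads to hg19 with Bowtie (Bowtie2 in the submitters' processing notes) and called peaks with MACS2 at default settings in each library. A shift to the Tn5 cut site, duplicate removal and a blacklist filter are not given in the sources used here, so peak edges may be off by some bases. The deposited lists hold chromosome, start, end, name and a score of 50 to 3100 per peak, whose scale is not stated. The deposited score was used as a rank within its list.

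Peaks were joined by 1 bp with Python 3.11.15, numpy 2.4.6 and pandas 2.3.3, and sequences were read with pysam 0.24.0 and samtools 1.23.1. GENCODE release 44 lifted to GRCh37 gave genes and starts; 0 of 24 chromosomes were missing from the reference. Coordinates are 1-based. A percentile is that of the score among the peaks of the same list, and for a promoter or region the highest peak was taken. For a gene of the 2 gene lists or a matched gene, the highest value over all its start clusters was taken in each peak list. Exact permutation tests used the 6 ways to label 2 of 4 libraries, with Benjamini-Hochberg adjustment. Region calling was tested on simulated data. The receptor genes and the gene lists were chosen with earlier results of these data known. Named genes were the 6 receptors, list genes with a region in both lists of 1 group alone (a few list genes are not reported here), and the closest matches by promoter percentile; a few other genes of the lists were named after their values were seen. Alternatives were equal list length, 50% overlap, peaks of 200 bp, the upper 50% by score, the gene body alone, 100 kb either side, and each library left out.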

Additional observations from a re-analysis of the deposited data

How the results depend on the processing

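No read counts were used, so depth could not be set equal; the nearest alternative was equal list length. With it, ATRA-specific peaks at the receptor genes fell from 13 to 6, regions in both ATRA lists alone from 6 to 3, and regions in both control lists alone rose from 3 to 6. In the upper 50% of each list by score the counts were 5 ATRA-specific, 0 control-specific, 2 in both ATRA lists alone, 0 in both control lists alone and 9 in all 4 lists. The gene body alone gave 6 ATRA-specific peaks, 3 control-specific and 7 regions in all lists, and 100 kb either side gave 27 in all lists. Leaving out 1 library, which also loosened the rule for its group, gave 7 to 23 ATRA-specific and 3 to 16 control-specific peaks. Regions in both ATRA lists alone were then 7 to 14 and those in both control lists alone 3 to 9. The differences in peak base pairs reversed in 4 cases: RARB (776 bp) and RXRA (270 bp) without division by the list total, RXRA in the upper 50% (30.7 per 1000000) and RXRG with peaks of 200 bp (-6.54). RARG (-0.721) and RXRG (-4.97) also turned negative without ATRA replicate 1, and RXRG (-2.81) without control replicate 2. The cause was not tested. As a replicate block, same-numbered lists were paired, which left each difference as it was (RXRB promoter 62.8, RARA promoter 26.0) with exact sign-flip p = 0.5, the smallest 2 pairs allow, except RARB base pairs with p = 1. The labels do not say that a number marks a shared culture.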
